A study of Mus musculus with 4 samples.

Results

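The genes described here are 39 components of bone morphogenetic protein (BMP) and transforming growth factor beta (TGF-beta) signalling, taken by gene symbol from the 25239 gene IDs of RNA-sequencing tables of embryonic mouse retina. They comprise 13 genes filed as ligands, 8 antagonists and modulators, 6 receptors, 8 Smads and 4 Id genes. All 39 were listed in each of the 4 libraries, each on 1 row. Retinae were dissected from mouse embryos at E13.5, and 2 libraries were labelled control and 2 Isl1cKO, a conditional knockout of Isl1, which encodes a LIM-homeodomain transcription factor of newly born retinal neurons. The Cre driver, the strain, the full genotype of the controls and the number of animals in each library are not given in the sources used here. The replicates are numbered in the labels but are not said to come from separate litters, so p-values measure only the spread between these libraries, which may be technical.

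BMPs and TGF-betas are secreted dimers that bring together type I and type II serine/threonine kinase receptors. The type I receptor phosphorylates receptor Smads, which enter the nucleus with Smad4, and the Id genes are classic transcriptional targets of the BMP branch. Extracellular antagonists such as noggin and chordin bind the ligands before they reach a receptor. In the developing retina BMP signalling is best known for setting up dorsal identity, with Bmp4 made dorsally and the antagonist Chrdl1 (ventroptin) made ventrally.

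Isl1 itself was not lower where it should be deleted. The controls held 242 and 201 TPM (a level scaled for transcript length and for the library's total) in replicates 1 and 2, an order kept throughout, while the libraries labelled Isl1cKO held 321 and 223 TPM. Its log2 fold change was 0.28 (SE 0.21, limma adjusted p = 0.683), and the tables hold no value per exon. Each direction given here is therefore that of the libraries labelled Isl1cKO against those labelled control. Aligned sequence, derived from coverage and FPKM, was between 12.6 and 14.3 gigabases per library, and the number of reads is unknown.

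Marker lists show how the tissue differed between the groups. The 7 retinal progenitor markers summed to 2227 and 2296 TPM in control and 2265 and 2546 TPM in Isl1cKO, and 0 passed the test in limma. Their groups did not overlap in 5 (4 higher, and Six3 lower), or 71.4%, beside 44.9% of all tested genes. Among them Rax, a homeobox gene of the retinal primordium, stood at 405 and 412 TPM in control and 426 and 477 TPM in Isl1cKO. Six3 stood at 217 and 232 TPM in control and 191 and 208 TPM in Isl1cKO. The 14 ganglion cell markers summed to 3919 and 3333 TPM in control against 2159 and 1476 TPM in Isl1cKO, and 3 of them (Nell2, Irx2 and Irx3) passed the test, all lower. In 12 of the 14 both Isl1cKO libraries were below both controls, as in 30% of all tested genes. The other markers, Isl1 and Pou4f2, overlapped. Pou4f2 stood at 126 and 124 TPM in control and at 135 and 120 TPM in Isl1cKO. The lens list went from 229 and 285 TPM to 13.7 and 9.76 TPM with 8 of 12 genes past the test, and the red blood cell list from 2903 and 4168 TPM to 1418 and 204 TPM with 0 of 8 tested. Endothelial markers summed to 64.9 to 86.8 TPM in control and 59.6 to 63.2 TPM in Isl1cKO. Kdr made up most of each sum, at 69 and 57 TPM in control and 56.7 and 55.5 TPM in Isl1cKO. In 7 of the 8 markers both Isl1cKO libraries were below both controls, as in 30% of all tested genes. Only 2 of the 8 could be tested, and 0 passed in limma. Cdh5, Tie1 and Emcn were listed at 0 in Isl1cKO replicate 2. Pigment epithelium markers summed to 37.6 to 44.6 TPM against 27.0 to 36.4 TPM with Rpe65 at 0 throughout, mesenchyme markers to 21.2 to 28.6 TPM against 15.7 to 20.5 TPM, and microglia markers to 54.9 to 56.7 TPM against 69.1 to 83.4 TPM. The part of these differences in the results below was not tested, and in bulk tissue fewer cells of a type cannot be told apart from less RNA per cell.

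The pathway was expressed at every step, and none of the 32 members that could be tested passed between the groups. Of the 39, these 32 reached 1 TPM in at least 2 libraries and were tested with limma on log2(TPM + 1), and 0 had an adjusted p-value under 0.05, against 0.493% of the 13984 genes tested. Before adjustment 5 members had a p-value under 0.05, 1 higher (Bmp7) and 4 lower (Gdf6, Bambi, Smad2 and Id4). That is 15.6% of the members tested, close to the 12.1% of all tested genes. The groups did not overlap in 16 members (50%, 7 higher and 9 lower), beside 44.9% of all tested genes.

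Most differences were small, and 3 tested members, Id4, Smad2 and Gdf6, had a log2 fold change beyond 0.5 in size. Over the tested members the log2 fold change ranged from -0.77 for Id4 to 0.48 for Bmpr1b, with a median of -0.02 against -0.05 over all tested genes. As deposited 13 members lay above 0 and 19 below, and under median-ratio scaling, which moved the median of all genes to about 0, 18 lay above and 14 below. The median size without sign was 0.10 for the members and 0.11 for all tested genes. For 29 of the 32 members the 95% interval of the log2 fold change lay within -1 to 1. The 3 exceptions were Gdf6, Grem1 and Id4.

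**Figure D1:**
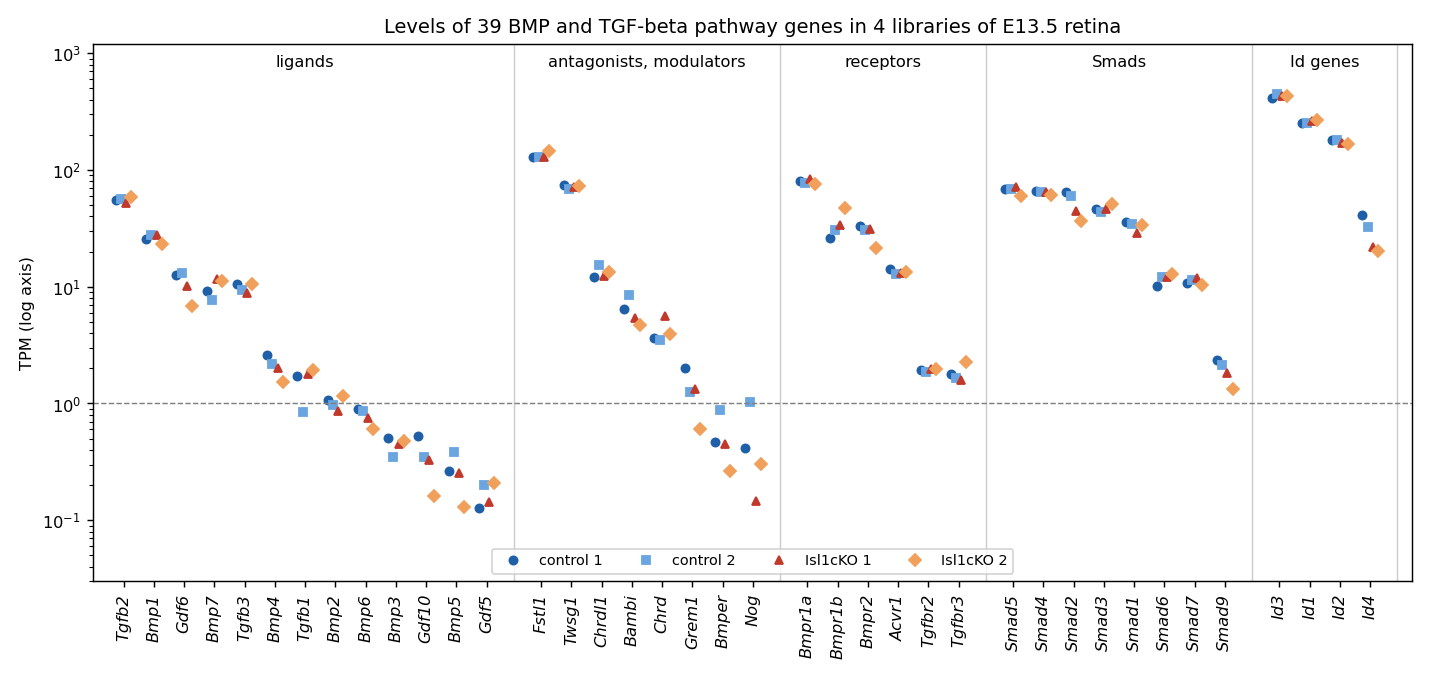
TPM of each of the 39 genes (log axis) in the 4 libraries, one marker per library, ordered by mean level within each role; the dashed line marks 1 TPM. Levels span from 0.128 TPM for Gdf5 to 451 TPM for Id3, and the 4 markers of a gene usually lie close together.

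**Figure D2:**
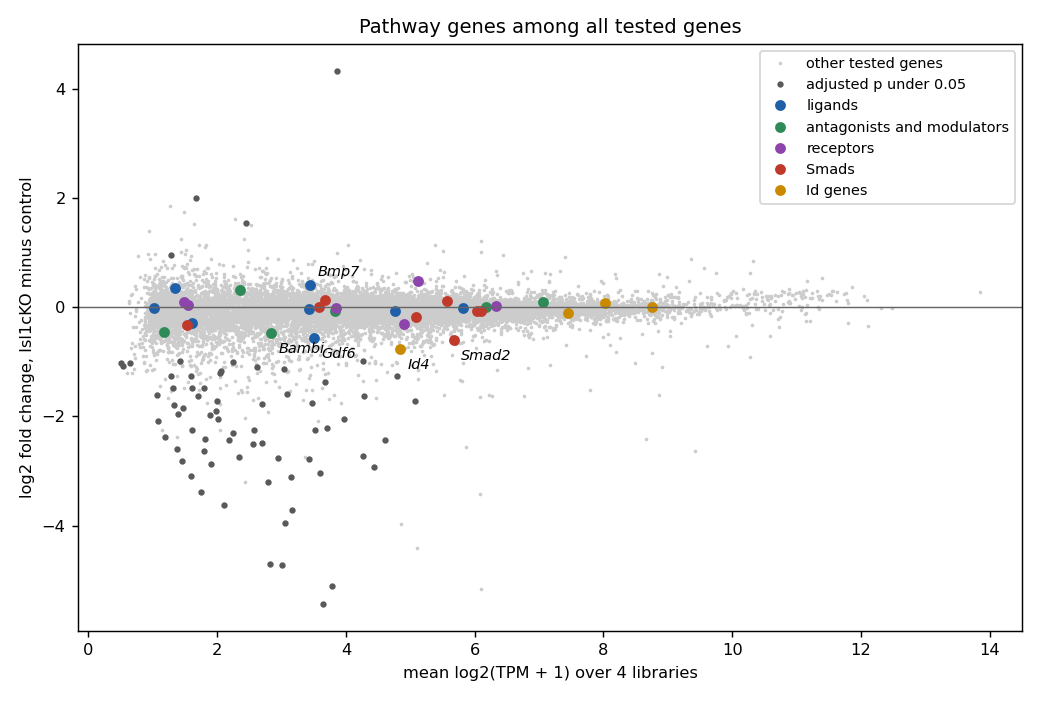
Log2 fold change (libraries labelled Isl1cKO minus control) against the mean of log2(TPM + 1) for 13984 tested genes; each point is a gene, dark points have an adjusted p-value under 0.05 and coloured points are the 32 tested pathway genes by role. None of the coloured points is past the threshold, and the lowest of them is Id4 at -0.77.

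Among the ligands, Tgfb2 was by far the most abundant, and the BMP ligands were led by Bmp7 and Gdf6. Of the 13 genes filed as ligands 8 were tested, 0 passed, 2 had a log2 fold change above 0 and their median was -0.02. Tgfb2 encodes a TGF-beta ligand needed for normal eye development and stood at 55.4 and 56.2 TPM in control and 52.6 and 58.8 TPM in Isl1cKO. The groups overlapped, and the ratio of the means was 0.999, with a 95% interval of -0.25 to 0.24 on the log2 scale. Bmp1, which encodes a procollagen C-proteinase that also cleaves chordin and is not itself a BMP ligand, stood at 25.6 and 27.7 TPM in control and at 27.8 and 23.1 TPM in Isl1cKO. Its groups overlapped too. Tgfb3 lay between 8.76 and 10.6 TPM and Bmp2 between 0.865 and 1.16 TPM in the 4 libraries, with overlapping groups. Bmp2 was the member closest to the filter on low values.

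The 2 ligands with an unadjusted p-value under 0.05 went in opposite directions. Bmp7 (chromosome 2, 172868012 to 172940321, minus strand), a ligand required for formation of the eye, stood at 9.24 and 7.74 TPM in control and at 11.7 and 11.3 TPM in Isl1cKO. Both Isl1cKO libraries were above both controls. The means were 8.49 ± 1.06 and 11.5 ± 0.333 TPM (SD, n = 2), which is 0.40 on the log2 scale (SE 0.11, limma adjusted p = 0.300). Gdf6 (chromosome 4, 9844372 to 9862345, plus strand), a BMP-type ligand of the dorsal eye whose loss causes small eyes, stood at 12.5 and 13 TPM in control and at 10.1 and 6.85 TPM in Isl1cKO. Both Isl1cKO libraries were below the controls, and the distance between them was larger than that of replicate 1 from the controls. The log2 fold change of Gdf6 was -0.56 (SE 0.18, limma adjusted p = 0.360). Without Isl1cKO replicate 2 it was -0.31, and without Isl1cKO replicate 1 it was -0.81.

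Bmp4, the main dorsal BMP of the early retina, was scarce. It stood at 2.59 and 2.18 TPM in control and at 2.01 and 1.52 TPM in Isl1cKO, so both Isl1cKO libraries were lower. The log2 fold change was -0.29 (SE 0.13, limma adjusted p = 0.472). Tgfb1, a TGF-beta ligand often made by immune and vascular cells, stood at 1.72 and 0.843 TPM in control and at 1.80 and 1.95 TPM in Isl1cKO. The 2 controls differed more from each other than control replicate 1 did from either Isl1cKO library, and its log2 fold change went from 0.36 to 0.08 without control replicate 2. Bmp3, Bmp5, Bmp6, Gdf5 and Gdf10 stayed under 1 TPM in each library, between 0.128 TPM for Gdf5 and 0.899 TPM for Bmp6, and were not tested. For Bmp5, Bmp6 and Gdf10 both Isl1cKO libraries were below both controls, and for Bmp3 and Gdf5 the groups overlapped. The coverage of these untested genes was between 0.65-fold (Bmp5) and 4.71-fold (Bmp6) per base, so small differences among them were not resolved at this depth.

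**Figure D3:**
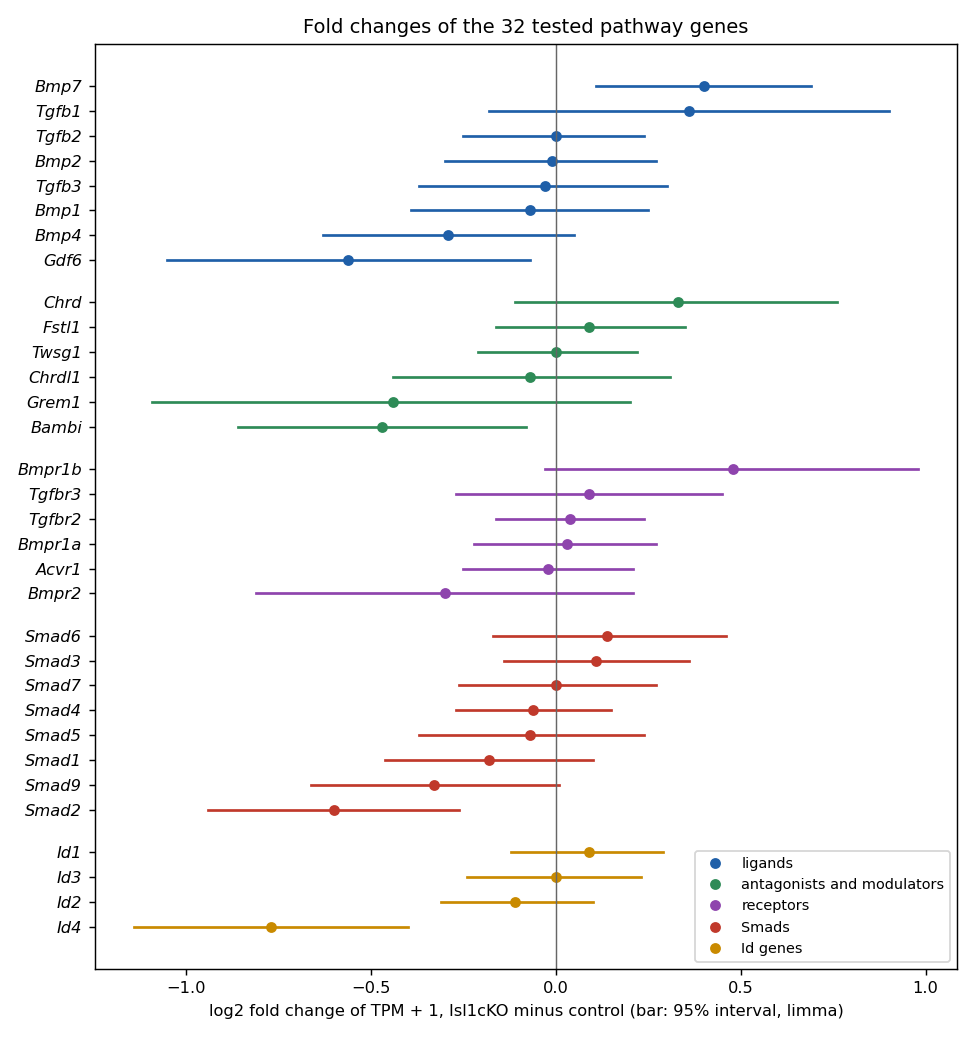
Log2 fold change of TPM + 1 (libraries labelled Isl1cKO minus control) with its unadjusted 95% interval from limma for the 32 tested pathway genes, grouped by role. The intervals of 5 genes, Bmp7, Gdf6, Bambi, Smad2 and Id4, exclude 0, and none of the adjusted p-values is under 0.05.

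The antagonists and modulators were dominated by Fstl1 and Twsg1, while the classic antagonists were scarce. Of the 8 genes 6 were tested, 0 passed, 3 were above 0 and 3 below, and the median log2 fold change was -0.03. Fstl1, a secreted follistatin-like glycoprotein that can dampen BMP signalling, stood at 129 and 128 TPM in control and at 129 and 145 TPM in Isl1cKO. Twsg1 (twisted gastrulation), which forms complexes with BMPs and chordin, stood at 73.7 and 69.4 TPM in control and at 70.8 and 72.7 TPM in Isl1cKO. For Twsg1 the groups overlapped and the 95% interval of the log2 fold change was -0.21 to 0.22. Chrdl1, the ventral BMP antagonist, lay between 12.0 and 15.3 TPM with overlapping groups and an interval of -0.44 to 0.31.

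Bambi (chromosome 18, 3507957 to 3516404, plus strand) had the lowest unadjusted p-value of the 6 tested genes of this group. It encodes a pseudoreceptor that lacks a kinase domain, and it is itself a target induced by BMP and TGF-beta. Bambi stood at 6.48 and 8.44 TPM in control and at 5.44 and 4.73 TPM in Isl1cKO, with both Isl1cKO libraries below both controls. The log2 fold change was -0.47 (SE 0.15, limma adjusted p = 0.345). Chordin (Chrd) stood at 3.66 and 3.47 TPM in control and at 5.64 and 3.93 TPM in Isl1cKO. Its log2 fold change of 0.33 was 0.11 without Isl1cKO replicate 1. Gremlin (Grem1) stood at 2.03 and 1.26 TPM in control and 1.32 and 0.599 TPM in Isl1cKO, with overlapping groups and an interval of -1.09 to 0.20. Noggin (Nog) was at 0.413 and 1.03 TPM in control and 0.146 and 0.303 TPM in Isl1cKO, with both Isl1cKO libraries lower. It reached 1 TPM in 1 library only and was not tested. Bmper stayed under 1 TPM, with both Isl1cKO libraries below both controls, and was not tested.

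The receptors were led by the BMP type I receptor Bmpr1a. All 6 were tested and 0 passed, with a median log2 fold change of 0.03. Bmpr1a stood at 80.6 and 77.1 TPM in control and at 84.2 and 76.6 TPM in Isl1cKO, with overlapping groups and a 95% interval of -0.22 to 0.27 for the log2 fold change. Bmpr1b (chromosome 3, 141837136 to 142169425, minus strand), a second BMP type I receptor with a ventral bias in the embryonic retina, stood at 26.0 and 30.9 TPM in control and at 33.8 and 46.9 TPM in Isl1cKO. Both Isl1cKO libraries were above both controls, and replicate 2 was the higher. The log2 fold change was 0.48 (SE 0.19, limma adjusted p = 0.438), and it was 0.25 without Isl1cKO replicate 2. Bmpr2, the main BMP type II receptor, stood at 33.3 and 30.8 TPM in control and at 31.1 and 21.5 TPM in Isl1cKO. Here replicate 1 lay within the range of the controls, and the log2 fold change of -0.30 was -0.04 without Isl1cKO replicate 2.

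The other receptors differed little between the groups. Acvr1, another BMP type I receptor, lay between 12.9 and 14.1 TPM with overlapping groups. The 2 TGF-beta receptors among the members were scarce, whereas Tgfbr1, the TGF-beta type I receptor and no member, stood at 122 and 117 TPM in control and 125 and 106 TPM in Isl1cKO, above each receptor among the members. Tgfbr2, the TGF-beta type II receptor, stood at 1.92 and 1.86 TPM in control and at 1.98 TPM in both Isl1cKO libraries, with an interval of -0.16 to 0.24. Tgfbr3, the co-receptor betaglycan, stood at 1.80 and 1.64 TPM in control and at 1.59 and 2.25 TPM in Isl1cKO. Its groups overlapped.

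The Smads of both branches were well expressed. All 8 were tested and 0 passed, with 3 above 0, 5 below and a median log2 fold change of -0.06. Smad4, the partner shared by all receptor Smads, stood at 66.2 and 65.1 TPM in control and 64.5 and 61.5 TPM in Isl1cKO, with an interval of -0.27 to 0.15. Smad5, of the BMP branch, stood at 68.5 and 69.4 TPM in control and 72.1 and 60.1 TPM in Isl1cKO. The groups overlapped for Smad5. For Smad4 both Isl1cKO libraries were below both controls, at a small log2 fold change of -0.06. The groups did not overlap in 4 of the 8 Smads (Smad1, Smad2, Smad4 and Smad9), all lower. That is 50%, beside 44.9% of all tested genes in either direction and 30% lower.

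Smad2 (chromosome 18, 76241701 to 76311747, plus strand), a receptor Smad of the TGF-beta and activin branch, had the largest fold change among the Smads. It stood at 64.8 and 59.3 TPM in control and at 44.9 and 36.7 TPM in Isl1cKO, and both Isl1cKO libraries were below both controls. The means were 62.1 ± 3.91 and 40.8 ± 5.77 TPM (SD, n = 2), a ratio of 0.658 and a log2 fold change of -0.60 (SE 0.13). For Smad2 the unadjusted p-value was 0.00732 and the limma adjusted p = 0.220, within a range of 0.0787 to 0.348 over 8 refits that kept all libraries. Smad3, the other receptor Smad of that branch, stood at 46.2 and 43.7 TPM in control and at 46.0 and 51.3 TPM in Isl1cKO, a log2 difference of 0.11 with an interval of -0.14 to 0.36. The difference between Smad2 and Smad3 was not tested.

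The remaining Smads had fold changes between those of Smad2 and Smad6. Smad1, of the BMP branch, stood at 36.0 and 34.7 TPM in control and at 28.7 and 33.5 TPM in Isl1cKO, with a log2 fold change of -0.18. Smad9, the least abundant receptor Smad of that branch, stood at 2.35 and 2.12 TPM in control and at 1.84 and 1.34 TPM in Isl1cKO. Its log2 fold change was -0.33 (SE 0.13, limma adjusted p = 0.423). The inhibitory Smads, which are feedback targets of the pathway, showed no such difference. Smad6 stood at 10.1 and 12.2 TPM in control and 12.0 and 12.8 TPM in Isl1cKO, and Smad7 lay between 10.3 and 11.8 TPM, both with overlapping groups.

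The Id genes were the most abundant members, and Id4 was the one that differed most between the groups. The 4 together made up 885 and 913 TPM in control and 884 and 885 TPM in Isl1cKO, a sum that hardly differed, and 0 of them passed in limma. Id proteins are helix-loop-helix factors without a DNA-binding region that hold proneural bHLH partners in check. Id3 stood at 411 and 451 TPM in control and at 428 and 431 TPM in Isl1cKO, with overlapping groups and a 95% interval of -0.24 to 0.23. Id1 stood at 251 TPM in both controls and at 265 and 268 TPM in Isl1cKO, a log2 difference of 0.09 with an interval of -0.12 to 0.29. Id2 stood at 181 and 179 TPM in control and at 169 and 166 TPM in Isl1cKO, a log2 difference of -0.11 with an interval of -0.31 to 0.10. For Id1 and Id2 the groups did not overlap, and the differences were in opposite directions and small.

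Id4 (chromosome 13, 48261116 to 48266028, plus strand) had levels of 41 and 32.3 TPM in the controls and of 21.8 and 20.2 TPM in Isl1cKO. Both Isl1cKO libraries were well below both controls and close to each other. The means were 36.6 ± 6.14 and 21.0 ± 1.11 TPM (SD, n = 2), a ratio of 0.573. The log2 fold change was -0.77 (SE 0.14, 95% interval -1.14 to -0.40) with an unadjusted p-value of 0.00384, and Id4 ranked 312 of 13984 genes by p-value. The limma adjusted p = 0.171 was the lowest of the 32 tested members. It stayed above 0.05 in the 8 refits on all libraries (0.0539 to 0.310), and the log2 fold change lay between -0.93 and -0.60 when 1 library was left out. A transcript annotated on the opposite strand of Id4, A330033J07Rik, reached at most 0.547 TPM.

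The sequences directly upstream of the Id genes are shown because these genes are the pathway's standard readout and differed in how far their levels moved. RefSeq windows on the build GRCm38.p6 were found for 3 of the 4 genes, Id2, Id3 and Id4. Each line gives the 250 bases before the annotated start, 5′ to 3′ on the gene's own strand. Capitals mark GGCGCC, a GC-rich element bound by BMP-branch Smads, and GTCTG or its reverse complement CAGAC, the core Smad-binding element, searched on both strands. The windows are chr12:25096093-25096342 on the minus strand for Id2, chr4:136143572-136143821 on the plus strand for Id3 and chr13:48260866-48261115 on the plus strand for Id4.
Id2: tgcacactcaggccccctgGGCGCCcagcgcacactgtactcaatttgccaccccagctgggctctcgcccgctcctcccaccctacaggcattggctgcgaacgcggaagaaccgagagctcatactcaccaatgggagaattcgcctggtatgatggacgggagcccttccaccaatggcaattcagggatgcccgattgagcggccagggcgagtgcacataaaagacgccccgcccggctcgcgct
Id3: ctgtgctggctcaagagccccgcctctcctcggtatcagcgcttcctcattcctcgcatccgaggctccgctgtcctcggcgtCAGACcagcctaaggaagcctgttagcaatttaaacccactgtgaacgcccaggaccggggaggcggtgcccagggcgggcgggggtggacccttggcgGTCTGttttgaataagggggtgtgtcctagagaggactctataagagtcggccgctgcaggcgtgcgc
Id4: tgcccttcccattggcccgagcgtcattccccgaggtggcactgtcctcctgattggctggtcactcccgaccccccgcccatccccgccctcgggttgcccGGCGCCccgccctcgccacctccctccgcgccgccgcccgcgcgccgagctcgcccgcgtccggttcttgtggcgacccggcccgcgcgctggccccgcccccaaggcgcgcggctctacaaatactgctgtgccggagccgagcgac

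GGCGCC occurred 1 time before Id2, beginning 231 bases before the start, and 1 time before Id4, beginning 148 bases before it. GTCTG or CAGAC occurred 2 times before Id3, beginning 167 and 68 bases before the start. The 2 motifs do not overlap in these windows. Over 32817 windows of the same length, 9.59% held GGCGCC and 42.2% held GTCTG or CAGAC, so the latter match is common and the former less so. Those windows were not matched for base composition. The base composition differed, with 75.6% G or C before Id4 against 62.8% before both Id2 and Id3. A match describes these letters only and is no evidence of binding.

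Other components of the pathway were read from a list of 66 genes, of which 40 were tested. In limma 1 passed, lower, and 0 passed higher, beside 0.493% of all tested genes in either direction. That gene was Fstl4, a follistatin-like secreted protein known from a subset of retinal ganglion cells. Fstl4 fell from 18.9 and 20.0 TPM in control to 7.17 and 6.64 TPM in Isl1cKO, or by 1.37 on the log2 scale (SE 0.09, limma adjusted p = 0.0199). The call was lost without the filter on low values (adjusted p-value 0.0630) and when any 1 library was left out (0.0567 to 0.174), while the log2 fold change stayed between -1.48 and -1.17. The ganglion cell markers were lower in the same libraries, and their part in this result was not tested.

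Co-receptors and extracellular regulators of the same list missed the threshold. Rgmb, a BMP co-receptor of the repulsive guidance molecule family, stood at 40.7 and 36.0 TPM in control and at 19.4 and 17.5 TPM in Isl1cKO. The log2 fold change of Rgmb was -1.02 (SE 0.11, limma adjusted p = 0.0632), and the adjusted p-value was under 0.05 in 5 of 8 refits on all libraries (0.0183 to 0.156). Kcp, a chordin-like protein that enhances BMP signalling, stood at 6.74 and 6.37 TPM in control and at 3.48 and 2.86 TPM in Isl1cKO, with an adjusted p-value of 0.0864. This one was under 0.05 with the replicate number as a block (0.0349) and with FPKM (0.0460). At an unadjusted p-value under 0.05 the list held 7 genes, 6 lower (Fstl4, Rgmb, Kcp, Pmepa1, Rgma and Tll1) and 1 higher (Ltbp1), or 17.5% of those tested beside 12.1% of all tested genes.

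Of 12 target genes other than the Id genes, 3 of which (Bambi, Smad6 and Smad7) are members, 9 were tested and 0 passed in limma, and of these Bambi alone had an unadjusted p-value under 0.05. The groups did not overlap in 2 of the 9, Bambi and Tgfbi. Tgfbi, a secreted matrix protein induced by TGF-beta, stood at 2.16 and 1.17 TPM in control and at 0.796 and 1.01 TPM in Isl1cKO, a log2 difference of -0.46 (SE 0.20, limma adjusted p = 0.479). Hey1, a bHLH repressor downstream of BMP and Notch, stood at 56.4 and 58.9 TPM in control and at 65.0 and 55.7 TPM in Isl1cKO, with overlapping groups. Msx1, a homeobox target of BMP in many tissues, stood at 1.99 and 2.82 TPM in control and 3.07 and 2.77 TPM in Isl1cKO.

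Dorsal and ventral retina genes were examined because BMP signalling patterns this axis. The dorsal factor Tbx5, which acts downstream of Bmp4, stood at 16.9 and 18.8 TPM in control and at 15.1 and 5.65 TPM in Isl1cKO. Aldh1a1, a retinaldehyde dehydrogenase of the dorsal retina, stood at 725 and 1385 TPM in control and at 925 and 402 TPM in Isl1cKO. Its groups overlapped, and its controls also lay far apart. In 5 of the 6 dorsal genes (Tbx2, Tbx3, Tbx5, Efnb1 and Efnb2) both Isl1cKO libraries were below both controls, as in 30% of all tested genes, and 0 passed in limma at either the adjusted or the unadjusted threshold of 0.05. The median log2 fold change of the dorsal list was -0.37. It shrank to -0.16 when Isl1cKO replicate 2 was left out and was -0.57 when replicate 1 was.

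The ventral genes Vax2 and Aldh1a3 went the other way, with both Isl1cKO libraries above both controls and replicate 2 the highest. The groups did not overlap in 3 of the 6 genes listed as ventral, these 2 and Ephb2, which was lower. That is 50%, beside 44.9% of all tested genes. Vax2, a ventral homeobox factor, stood at 88.7 and 95.5 TPM in control and at 110 and 166 TPM in Isl1cKO. Aldh1a3, the retinaldehyde dehydrogenase of the ventral retina, stood at 118 and 98.6 TPM in control and at 132 and 215 TPM in Isl1cKO. Of the 6 genes listed as ventral 0 passed in limma and 0 had an unadjusted p-value under 0.05. The other 4 on that list (Vax1, Ephb2, Ephb3 and Epha5) showed no common direction between the groups. By library, Vax1 (16.3 TPM) and Ephb3 (15.6 TPM) were also highest in Isl1cKO replicate 2, while Ephb2 and Epha5 were not. In Isl1cKO replicate 2 the dorsal list summed to 616 TPM and the ventral list to 511 TPM, against 1214 and 374 TPM in Isl1cKO replicate 1 and against 1040 and 1715 TPM (dorsal) and 358 and 333 TPM (ventral) in control. Aldh1a1, whose groups overlapped and whose controls lay far apart, made up most of each dorsal sum.

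Several members differed between the 2 Isl1cKO libraries about as much as between the groups, and 4 of them were picked out after their values were seen. Between Isl1cKO replicates 2 and 1 the difference on the log2 scale was -0.50 for Gdf6, -0.25 for Bmp4, -0.51 for Bmpr2 and 0.46 for Bmpr1b, against 0.06, -0.18, -0.11 and 0.24 between control replicates 2 and 1. For Id4, Bmp7 and Bambi the Isl1cKO libraries lay closer together, at -0.10, -0.05 and -0.17. Over all members, 22 of 32, or 68.8%, differed more between the Isl1cKO libraries than between the controls, beside 61.8% of all tested genes. Whether the part of the retina that was dissected differed between libraries was not tested.

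**Figure D4:**
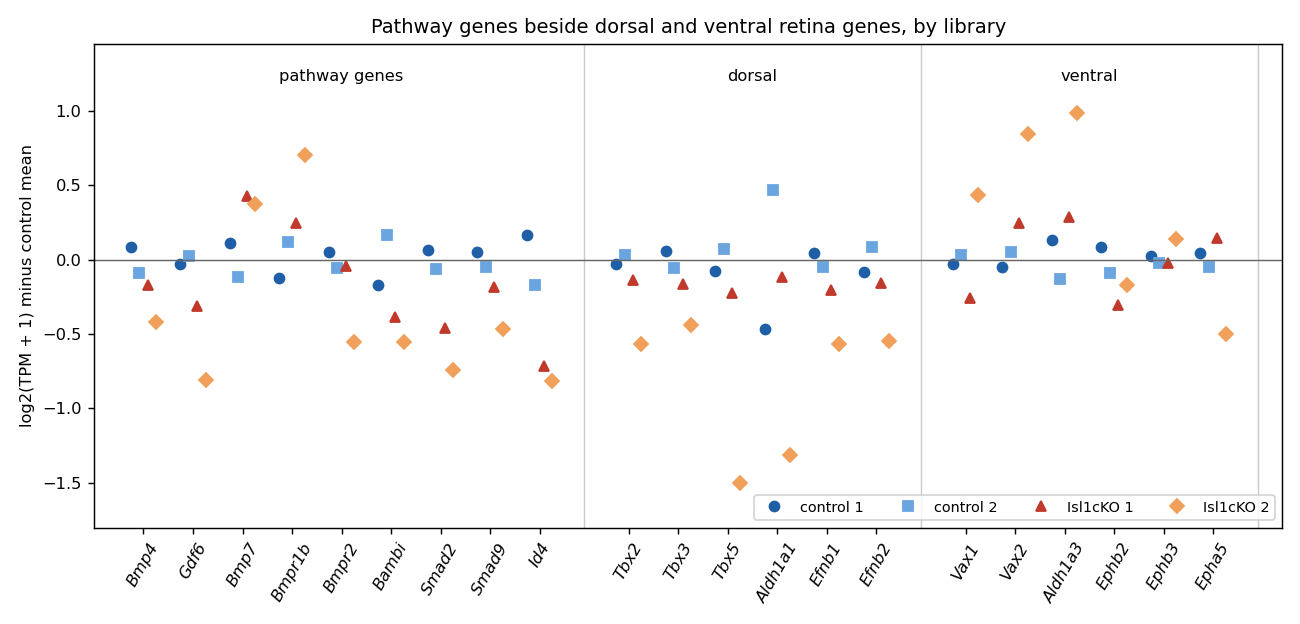
Log2(TPM + 1) of each library minus the mean of the controls for 9 pathway genes, chosen after their values were seen. Beside them are the 6 genes listed as dorsal and the 6 listed as ventral, and each marker is 1 library. Isl1cKO replicate 2 is the lowest library for all 6 dorsal genes and the highest for the ventral genes Vax1, Vax2, Aldh1a3 and Ephb3. Among the plotted pathway genes it is the lowest for Bmp4, Gdf6, Bmpr2, Bambi, Smad2, Smad9 and Id4 and the highest for Bmpr1b. Because these 9 were chosen with their values known, this describes them alone and not the other members.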

How the data were processed

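Bulk RNA sequencing of E13.5 mouse retina was compared between 2 control libraries and 2 libraries labelled Isl1cKO, made from poly(A)-selected RNA with a strand-specific kit, per the labels' protocols. The submitters' processing notes name Trimmomatic, FastQC, HISAT2, SAMtools, StringTie, DESeq2 and the build mm10, while versions, options, annotation and use of strand are not given in the sources used here. Per the file headers, each table holds a gene's deposited coverage per base, FPKM and TPM, with 1 table per library. Count models were not used, since none of these units is a count. TPM of a gene ID on several rows were summed, which concerned no member. Genes reaching 1 TPM in 2 or more libraries (13984) were tested on log2(TPM + 1) with lmFit and eBayes of limma 3.58.1 (R 4.3.3), genotype as the only term, and Benjamini-Hochberg adjustment over all tested genes at 0.05. Adding 1 understates the fold change of low genes. The script was tested on simulated data. Adjusted p-values always come from this limma fit or a named refit of it.

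The members and lists were chosen with earlier results of these data known. Values of every library were to be printed for members past the threshold or with an unadjusted p-value under 0.05, and in each role for the 4 with the largest absolute fold changes and the 2 with the highest mean TPM. Of the other lists, genes past the threshold and up to 6 with the largest absolute fold changes were to be named. All 39 members overlapped their RefSeq gene on GRCm38.p6. The replicate numbers were not treated as pairs, since no label ties them to a litter or day. Alternatives were a pseudocount of 0.1, no filter, a filter at 5 TPM, FPKM, 2 scalings, a mean-variance trend, the replicate block and leaving out each library.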

Additional observations from a re-analysis of the deposited data

How the results depend on the processing

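Of the tested members, 0 passed in limma under each of the 12 alternatives, with the lowest adjusted p-value of a member between 0.0539 (Id4, replicate block) and 0.595 (Tgfb1, without control replicate 1). The count of all genes past the threshold, 69, was 44 at a pseudocount of 0.1, 15 with no filter on low values, where more genes were tested, 127 with FPKM and 110 with a mean-variance trend. Leaving out each library in turn gave 10 to 37, with fewer samples in the fit. The replicate block gave 265 genes (25 higher, 240 lower), and 9 members rather than 5 had an unadjusted p-value under 0.05 in limma. The share of all tested genes under that unadjusted threshold was not computed for this refit. The rise from 5 to 9 therefore cannot be read as particular to the members. Same-numbered libraries deviated from their group means with a correlation of 0.126 across genes.

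The median log2 fold change of the tested members was -0.0345 with no filter, 0.0237 with FPKM, 0.0208 under median-ratio scaling and 0.0176 under upper-quartile scaling. These scalings moved the median of all genes by about 0.05, so that 18 members lay above 0 and 14 below under median-ratio scaling, against 13 and 19 as deposited. Of 369 recomputed member values, 336 kept direction and side of the threshold and 33 changed sign, all near 0 and in 12 members. Tgfb2, Tgfb3, Acvr1 and Id3 were at 0.04, 0.01, 0.02 and 0.05 with FPKM. In that order they were at 0.05, 0.01, 0.03 and 0.05 under median-ratio scaling, with Bmp2 at 0.01, and at 0.04, 0.01, 0.02 and 0.05 under upper-quartile scaling, again with Bmp2 at 0.01. With 1 library left out the log2 fold change ran from -0.20 to 0.06 for Bmp1, -0.12 to 0.09 for Bmp2, -0.08 to 0.08 for Tgfb2, -0.16 to 0.09 for Tgfb3, -0.23 to 0.10 for Chrdl1 and -0.04 to 0.05 for Twsg1. It ran from -0.04 to 0.09 for Bmpr1a, -0.08 to 0.04 for Acvr1, -0.07 to 0.25 for Tgfbr3, -0.20 to 0.06 for Smad5, -0.08 to 0.09 for Smad7 and -0.07 to 0.06 for Id3. Outside the member list it ran from -0.05 to 0.17 for Hey1, -0.26 to 0.43 for Vax1, -0.02 to 0.14 for Ephb3 and -0.50 to 0.15 for Epha5. The lone library of a group was then assumed to vary like the other group. Except where stated, the cause of these changes was not tested. Without read numbers, no detection limit could be given for members under 1 TPM.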
